A study of Mus musculus with 10 samples.

Results

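The phosphofructokinase family comprised 7 of the 57185 genes with counts in bulk RNA-seq of mouse hearts from a heart failure model. It held the 3 genes of 6-phosphofructo-1-kinase (PFK-1), *Pfkm*, *Pfkl* and *Pfkp*, and the 4 genes of the bifunctional enzyme 6-phosphofructo-2-kinase/fructose-2,6-bisphosphatase (PFKFB), *Pfkfb1*, *Pfkfb2*, *Pfkfb3* and *Pfkfb4*. The members were taken by gene symbol. The family was chosen from earlier results of these mice in which *Pfkp* differed between the genotypes, so the genotype difference of each member is given as a description, with no p-value.

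The study asked how deletion of RAD, a small GTPase that restrains the cardiac L-type calcium channel, acts in hearts that already fail for lack of muscle LIM protein (MLP, gene *Csrp3*). Every mouse was a male MLP knockout (MLP-/-) with a floxed RAD gene (RAD fl/fl), and every mouse was given tamoxifen at 100 mg/kg at 10 weeks of age. The 5 cRADΔ/Δ-MLPKO mice also carried MYH6-MerCreMer, a tamoxifen-activated Cre under a cardiomyocyte promoter, and the 5 MLPKO mice carried no Cre. The Cre transgene and the deletion therefore cannot be told apart. Polyadenylated RNA of the ventricular apex was sequenced, 1 library per mouse, at a labelled age of 16 weeks. The methods place the tissue 1 month after tamoxifen. For that time the paper reports better systolic function in cRADΔ/Δ-MLPKO than in MLPKO mice. Genotype and heart function therefore cannot be told apart here either.

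PFK-1 phosphorylates fructose 6-phosphate to fructose 1,6-bisphosphate, the step that commits sugar to glycolysis. It works as a tetramer built from muscle type (*Pfkm*), liver type (*Pfkl*) and platelet type (*Pfkp*) subunits. The PFKFB enzymes make and degrade fructose 2,6-bisphosphate, a strong allosteric activator of PFK-1. The heart is known for the *Pfkfb2* enzyme, whose kinase activity is raised by phosphorylation downstream of insulin, adrenaline and energy stress.

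The 3 PFK-1 genes lie on different chromosomes. Sequence before a transcript start of each is shown, because 1 of the 3 differed between the genotypes and the other 2 overlapped. In GRCm39, *Pfkp* (ENSMUSG00000021196) spans chr13:6629798-6698970 on the minus strand, *Pfkl* (ENSMUSG00000020277) spans chr10:77818084-77845922 on the minus strand, and *Pfkm* (ENSMUSG00000033065) spans chr15:97990451-98031417 on the plus strand. For *Pfkp* (chr13:6698971-6699220) and *Pfkl* (chr10:77845923-77846172) the sequence ends next to the start of the transcript that Ensembl tags as canonical. The *Pfkm* window before its canonical start, chr15:98006074-98006323, lies inside the span of the gene. The part of it shown, chr15:98006074-98006207, stops after 134 bases, where an exon of another *Pfkm* transcript begins. Capitals mark matches on either strand to CACGTG (an E-box) and to GATAA. The GC box, GGGCGG, was searched in the same way.
Pfkp: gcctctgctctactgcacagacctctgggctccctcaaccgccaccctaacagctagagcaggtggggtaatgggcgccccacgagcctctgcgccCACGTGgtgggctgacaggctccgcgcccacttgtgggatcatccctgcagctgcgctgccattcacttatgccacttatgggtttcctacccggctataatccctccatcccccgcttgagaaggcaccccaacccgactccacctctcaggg
Pfkl: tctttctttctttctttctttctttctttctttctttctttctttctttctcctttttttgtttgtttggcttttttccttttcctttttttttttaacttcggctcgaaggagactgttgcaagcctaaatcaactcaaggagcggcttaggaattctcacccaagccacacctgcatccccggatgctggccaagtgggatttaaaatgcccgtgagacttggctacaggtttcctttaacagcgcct
Pfkm: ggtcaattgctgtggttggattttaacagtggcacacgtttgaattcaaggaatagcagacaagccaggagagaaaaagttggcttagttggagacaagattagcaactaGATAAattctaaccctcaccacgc
The *Pfkp* window held 1 E-box, a motif present in 6.3% of the 250-base windows of 21757 protein-coding genes. The *Pfkl* window held none of the 3 motifs. The whole 250-base window of *Pfkm* held 2 GATAA matches, a motif present in 22.4% of windows. No window of the 3 genes held a GC box, which 36.3% of windows held. No matches overlapped each other. A match describes the letters only.

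Library totals ran from 33457406 to 49965101 counts, with a median of 43738141. All values below named CPM are counts scaled to a common depth with TMM library sizes, and they compare mice within a gene. In the genotype comparison over 13451 genes, 369 were called at an adjusted p under 0.05 (edgeR quasi-likelihood test, Benjamini-Hochberg), which is 2.74% of the genes tested. Those lower in cRADΔ/Δ-MLPKO were 1.80% and those higher 0.944%. All 7 members passed the filter on low counts. *Rrad*, the RAD gene, was at 139.7 to 282 CPM in MLPKO and 135 to 202 CPM in cRADΔ/Δ-MLPKO, with a log2 fold change of -0.38 (adjusted p = 0.290, edgeR), and *Csrp3* was counted in every mouse, at 691 to 3261 CPM. Counts over a whole gene do not show the deleted part, and the mice are grouped as labelled. All 6 cardiomyocyte markers of the list used here passed the filter.

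*Pfkp*, the platelet-type PFK-1, was at 109.6, 156, 129, 114 and 117 CPM in the 5 MLPKO mice and at 62.0, 52.6, 67.7, 52.6 and 58.3 CPM in the 5 cRADΔ/Δ-MLPKO mice. The highest cRADΔ/Δ-MLPKO mouse lay below the lowest MLPKO mouse, so the genotypes did not overlap. The means were 125 ± 18.7 CPM (SD, n = 5) and 58.7 ± 6.44 CPM (SD, n = 5), so that cRADΔ/Δ-MLPKO stood at 46.9% of MLPKO, with a log2 fold change of -1.09 ± 0.11 (SE). *Pfkp* was the 1 member of 7 called in the fit over all genes, and also the 1 member whose genotypes did not overlap, beside 2.74% of all genes called and 6.62% of all genes without overlap. DESeq2, which called 9.65% of all genes, called the same member. Nothing is read from these counts, since the family was chosen on this contrast.

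MLPKO mouse 2 had the highest *Pfkp*. Without it the log2 fold change was -1.0, and over the 10 fits that leave out 1 mouse each it ran from -1.14 to -1.0. These fits reuse the contrast on which the family was chosen, so they describe the estimate only. At its 3′ side the gene borders *Pitrm1*, a mitochondrial protease gene on the opposite strand that shares 11.1% of the exon bases of *Pfkp*. The strand setting of the counting is not given in the sources used here, so reads in the shared part cannot be told apart. *Pitrm1* itself was at 51.8 ± 1.58 CPM and 47.7 ± 3.35 CPM (log2 fold change -0.12, adjusted p = 0.272, edgeR).

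*Pfkm*, the muscle-type PFK-1, was at 936, 830.1, 988, 968 and 1017 CPM in MLPKO and at 852, 953, 889.6, 1014 and 974 CPM in cRADΔ/Δ-MLPKO. The genotypes overlapped almost completely. The means were 948 ± 72.0 CPM and 936 ± 65.4 CPM (SD, n = 5 each), and the log2 fold change was -0.02 ± 0.07 (SE). *Pfkm* was the steadiest member, with a coefficient of variation of 7.60% in MLPKO and 6.99% in cRADΔ/Δ-MLPKO. The noncoding gene *Gm26513*, on the same strand, shares 20.6% of the exon bases of *Pfkm* and had at most 15 counts in a library. *Senp1*, on the opposite strand, shares 4.4%. Reads in these shared parts cannot be told apart, and the exon length of *Pfkm* used below includes them.

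*Pfkl*, the liver-type PFK-1, was at 121, 126, 127, 116 and 142 CPM in MLPKO and at 118, 129, 148, 141 and 125 CPM in cRADΔ/Δ-MLPKO. These ranges also overlapped, with means of 126 ± 9.79 CPM and 132 ± 12.2 CPM (SD, n = 5 each) and a log2 fold change of 0.07 ± 0.08 (SE). The opposite-strand gene *Cfap410* shares 39.8% of the exon bases of *Pfkl*. *Cfap410* reached at most 593 counts in a library, where *Pfkl* had at least 3952. Reads in this shared part cannot be told apart either, and the exon length of *Pfkl* used below includes it.

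**Figure D1:**
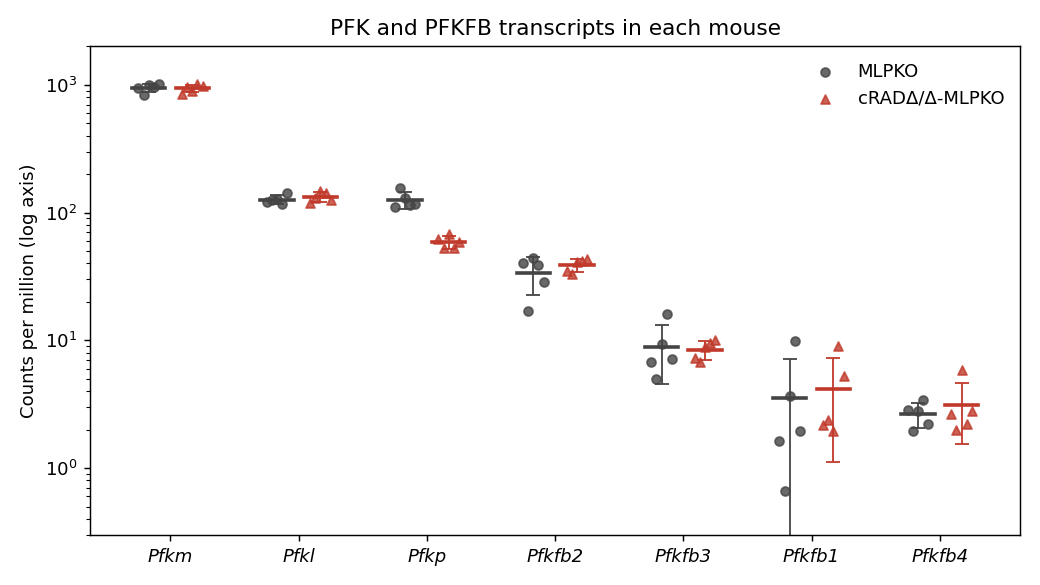
CPM of the 7 genes in each mouse, on a log axis, with circles for the 5 MLPKO mice and triangles for the 5 cRADΔ/Δ-MLPKO mice. Horizontal lines are means and error bars are SD. The lower bar of *Pfkfb1* in MLPKO would pass 0 and is cut at the axis. *Pfkp* is the gene whose 2 sets of points are apart (109.6 to 156 CPM against 52.6 to 67.7 CPM).

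Divided by the length of the merged exons of each gene, the 3 PFK-1 genes can be added up. In CPM per kilobase of exon their sum was 123 ± 7.56 in MLPKO and 118 ± 7.32 in cRADΔ/Δ-MLPKO (SD, n = 5 each), or 96.1% of MLPKO, and the genotypes overlapped. *Pfkm* made up most of this sum in every mouse. Its share was 86.7, 82.8, 86.1, 87.2 and 86.2% in MLPKO and 88.0, 88.9, 86.4, 88.9 and 89.1% in cRADΔ/Δ-MLPKO, with means of 85.8 ± 1.74% and 88.3 ± 1.13%. The share of *Pfkp* was 5.53, 8.47, 6.14, 5.58 and 5.42% in MLPKO and 3.49, 2.67, 3.58, 2.51 and 2.91% in cRADΔ/Δ-MLPKO, again without overlap, with means of 6.23 ± 1.28% and 3.03 ± 0.482%. The share of *Pfkl* overlapped, at 7.97 ± 0.587% and 8.70 ± 0.777%.

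The ratio of *Pfkp* to *Pfkl* per kilobase was 0.648 to 0.968 in MLPKO and 0.291 to 0.410 in cRADΔ/Δ-MLPKO. For 1 *Pfkp* there were 14.2 ± 2.58 *Pfkm* in MLPKO and 29.7 ± 4.93 in cRADΔ/Δ-MLPKO, on the same scale. These ratios restate the difference in *Pfkp* within each library, where the scaling between libraries cancels out. A ratio shows unequal levels, and it does not show which RNA differed. The lengths matter for the size of these ratios and for the shares. With the canonical transcript as length, there were 8.34 *Pfkm* for 1 *Pfkp* in MLPKO and 17.5 in cRADΔ/Δ-MLPKO. The ratio of *Pfkp* to *Pfkl* was then 0.788 to 1.18 in MLPKO and 0.354 to 0.499 in cRADΔ/Δ-MLPKO. With counts not divided by length, the mean share of *Pfkp* was 10.5% and 5.23%, and with the canonical transcript as length it was 9.85% and 4.89%.

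**Figure D2:**
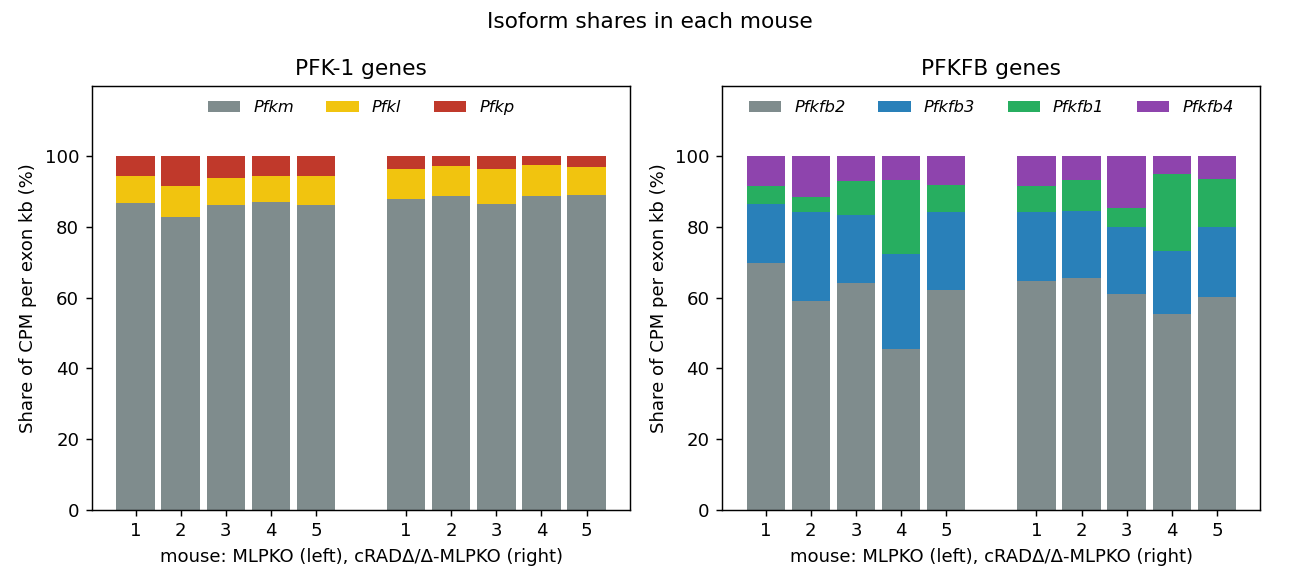
Share of each gene in the summed CPM per kilobase of exon, in percent, for the PFK-1 genes (left panel) and the PFKFB genes (right panel), with 1 bar per mouse. *Pfkm* fills 82.8 to 89.1% of every bar on the left and *Pfkp* 2.51 to 8.47%, and on the right *Pfkfb2* is the largest part in all 10 mice.

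*Pfkfb2* (ENSMUSG00000026409, chr1:130616779-130656990, minus strand), the heart PFKFB enzyme, was at 40.1, 16.9, 43.9, 38.99 and 28.5 CPM in MLPKO and at 34.7, 32.9, 40.7, 42.0 and 43.3 CPM in cRADΔ/Δ-MLPKO. The cRADΔ/Δ-MLPKO mice all lay inside the MLPKO range, and MLPKO mouse 2 was the lowest of the 10. The means were 33.7 ± 10.98 CPM and 38.7 ± 4.60 CPM (SD, n = 5 each), with a log2 fold change of 0.20 ± 0.21 (SE), which was 0.03 without MLPKO mouse 2. *Yod1*, on the opposite strand, shares 16.0% of the exon bases and was at 4.73 to 7.06 CPM over the 10 mice. Reads in the part shared with *Yod1* cannot be told apart either.

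*Pfkfb3* (ENSMUSG00000026773, chr2:11476244-11558888, minus strand), the inducible enzyme with high kinase activity, was at 6.80, 5.01, 9.30, 16.1 and 7.15 CPM in MLPKO and at 7.30, 6.75, 8.80, 9.49 and 9.97 CPM in cRADΔ/Δ-MLPKO. MLPKO mouse 4 was the highest and MLPKO mouse 2 the lowest, with all cRADΔ/Δ-MLPKO mice between them. The log2 fold change was -0.07 ± 0.26 (SE), and it ran from -0.21 to 0.26 when 1 mouse was left out.

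*Pfkfb1* (ENSMUSG00000025271, chrX:149371225-149426874, plus strand), the liver and skeletal muscle enzyme, was at 1.62, 0.665, 3.65, 9.79 and 1.94 CPM in MLPKO and at 2.18, 2.37, 1.94, 9.06 and 5.29 CPM in cRADΔ/Δ-MLPKO. It varied most of the 7 genes, with a 14.7-fold span over the 10 mice and a high mouse in each genotype (mouse 4 of each, different animals). Its log2 fold change of 0.25 ± 0.64 (SE) ran from -0.25 to 1.07 when 1 mouse was left out. Skeletal muscle markers summed to at most 2.61 CPM in any mouse.

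*Pfkfb4* (ENSMUSG00000025648, chr9:108820832-108862847, plus strand), known as the testis enzyme, was at 2.84, 1.96, 2.80, 3.41 and 2.21 CPM in MLPKO and at 2.63, 2.00, 5.82, 2.23 and 2.78 CPM in cRADΔ/Δ-MLPKO. Apart from mouse 3, the cRADΔ/Δ-MLPKO mice lay inside the MLPKO range. The log2 fold change was 0.22 ± 0.28 (SE) and ran from -0.13 to 0.34 when 1 mouse was left out. The same mouse was the 1 library with adipocyte markers, whose sum over 4 genes was 25.95 CPM there and at most 0.353 CPM in the others. The adipocyte genes *Adipoq*, *Plin1* and *Cidec* were at 5.90, 9.01 and 10.8 CPM in it, and their part in the *Pfkfb4* value was not tested.

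The 4 PFKFB genes summed to 4.98 ± 1.89 CPM per kilobase of exon in MLPKO and 5.54 ± 0.978 in cRADΔ/Δ-MLPKO (SD, n = 5 each). *Pfkfb2* held 60.1 ± 9.00% of that sum in MLPKO and 61.4 ± 4.09% in cRADΔ/Δ-MLPKO, *Pfkfb3* 22.0 ± 4.04% and 19.0 ± 0.742%, *Pfkfb1* 9.58 ± 6.73% and 11.4 ± 6.60%, and *Pfkfb4* 8.27 ± 1.95% and 8.19 ± 3.79%. All 4 shares overlapped between the genotypes. The split below *Pfkfb2* depends on the length used. With the canonical transcript as length, *Pfkfb3* held 10.4 and 8.70%, *Pfkfb1* 10.6 and 12.1%, and *Pfkfb4* 5.34 and 5.20%. The lowest *Pfkfb2* share, 45.6%, was that of MLPKO mouse 4, where *Pfkfb1* and *Pfkfb3* were at their highest.

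The order of the levels was not used to choose the family, so neighbours in it were compared within each mouse, in log2 CPM per kilobase of exon, with an exact two-sided sign-flip permutation test over the 10 mice and adjustment over the 6 pairs. *Pfkm* was highest, above *Pfkl* by 3.39 ± 0.14 (SD) in 10 of 10 mice (adjusted p = 0.00391, exact permutation). *Pfkl* lay above *Pfkp* by 0.95 ± 0.64 in 10 of 10 mice. Pairs that hold *Pfkp* pool genotypes that differ in it, the contrast behind the choice of the family, so they get no p-value. The gap between *Pfkl* and *Pfkp* was 0.37 ± 0.22 in MLPKO and 1.53 ± 0.19 in cRADΔ/Δ-MLPKO. With the canonical transcript as length it was 0.09 ± 0.22 in MLPKO, where *Pfkl* was the higher in 4 of 5 mice, so the order of these genes in MLPKO depends on the length used.

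*Pfkp* lay above *Pfkfb2* by 0.76 ± 0.88 in 8 of 10 mice, again given without a p-value. The difference was 1.44 ± 0.73 in MLPKO and 0.08 ± 0.21 in cRADΔ/Δ-MLPKO, where *Pfkp* was the higher in 3 of 5 mice. *Pfkfb2* lay above *Pfkfb3* by 1.57 ± 0.35 in 10 of 10 mice (adjusted p = 0.00391, exact permutation), and by 2.97 with the canonical transcript as length. *Pfkfb3* lay above *Pfkfb1* by 1.17 ± 0.82 in 9 of 10 mice (adjusted p = 0.00586, exact permutation), but the difference was -0.06 with the canonical transcript as length, so their order depends on the length used. *Pfkfb1* and *Pfkfb4* did not differ beyond their spread (0.20 ± 1.21, adjusted p = 0.607, exact permutation). Within the 5 mice of 1 genotype this exact permutation test cannot go below p = 0.0625, so no test is given there.

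Genes around PFK were read from 4 lists, in the same fit over all genes. In that fit 2.74% of all genes were called, 1.80% lower and 0.944% higher, and 21.6% had an unadjusted p under 0.05. The genotypes did not overlap in 6.62% of all genes, and DESeq2 called 9.65%. The list of enzymes that oppose PFK held 3 genes. *Tigar*, which degrades fructose 2,6-bisphosphate, was at 79.0 ± 15.0 CPM and 83.3 ± 4.73 CPM, and the muscle fructose bisphosphatase *Fbp2* was at 2.60 to 18.6 CPM in MLPKO and 6.88 to 13.3 CPM in cRADΔ/Δ-MLPKO. Both had a log2 fold change of 0.08, neither was called by edgeR or DESeq2, and 0 had an unadjusted p under 0.05. The third gene of that list, *Fbp1*, had at most 6 counts in a library and was not tested.

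The list of kinases that act on heart PFK-2 (AMPK, protein kinase A, AKT and PDK1) held 13 subunits. Of these, 1 was called lower and 0 higher, beside 1.80% and 0.944% of all genes. An unadjusted p under 0.05 was found for 5, and the median log2 fold change was -0.06 beside 0.01 over all genes. The 1 called was *Prkab2*, the β2 scaffold subunit of AMPK. It was at 119, 192, 114, 89.1 and 143 CPM in MLPKO and at 64.8, 60.5, 66.0, 55.3 and 69.0 CPM in cRADΔ/Δ-MLPKO, without overlap. Its log2 fold change was -1.06 ± 0.17 (SE, adjusted p = 0.0161, edgeR), it was called in all 10 fits that leave out 1 mouse, and its adjusted p ran from 1.5e-07 to 0.0497 over the alternatives. The other AMPK subunits were not called by edgeR, with the catalytic *Prkaa2*, the main heart form, at 214 ± 26.5 CPM and 211 ± 10.3 CPM. DESeq2 also called *Prkag3* and *Prkaca* lower.

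Of 28 genes of glucose uptake, glycolysis and lactate handling outside PFK, 21 were tested. Among those, 2 were called lower and 0 higher, beside 1.80% and 0.944% of all genes. There were 5 at an unadjusted p under 0.05, and the median log2 fold change was -0.04. *Gapdh*, the enzyme that oxidizes glyceraldehyde 3-phosphate, was at 2736 ± 211 CPM and 2186 ± 83.0 CPM (log2 fold change -0.32 ± 0.07 SE, adjusted p = 0.0316, edgeR). *Slc16a1*, the monocarboxylate transporter MCT1, was at 284 ± 27.6 CPM and 215 ± 25.0 CPM (log2 fold change -0.40 ± 0.09 SE, adjusted p = 0.0395, edgeR). In both genes the genotypes did not overlap, as in 6.62% of all genes. Each was called in only 3 of the 10 fits that leave out 1 mouse, with adjusted p up to 0.0774 for *Gapdh* and 0.0974 for *Slc16a1*. *Gapdh* lost its call without any 1 of the cRADΔ/Δ-MLPKO mice or of MLPKO mice 1 and 5, and *Slc16a1* without cRADΔ/Δ-MLPKO mouse 1, 3, 4 or 5 or MLPKO mouse 1, 3 or 5.

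The enzymes just before and after PFK were *Gpi1*, at 504 ± 19.6 CPM and 453 ± 20.3 CPM without overlap (adjusted p = 0.135, edgeR; called lower by DESeq2), and *Aldoa*, at 2043 ± 84.8 CPM and 1985 ± 93.5 CPM (log2 fold change -0.04). These were named after their values were seen, for their place in the pathway. Of 15 transcription factors known for glycolytic genes, edgeR called 0, and 4 had an unadjusted p under 0.05, with a median log2 fold change of 0.03. DESeq2 called *Ppargc1a*, a coactivator of mitochondrial genes, higher and *Esrrg* lower. *Hif1a*, a main activator of glycolytic genes in low oxygen, was at 57.8 ± 9.17 CPM and 56.5 ± 5.63 CPM.

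**Figure D3:**
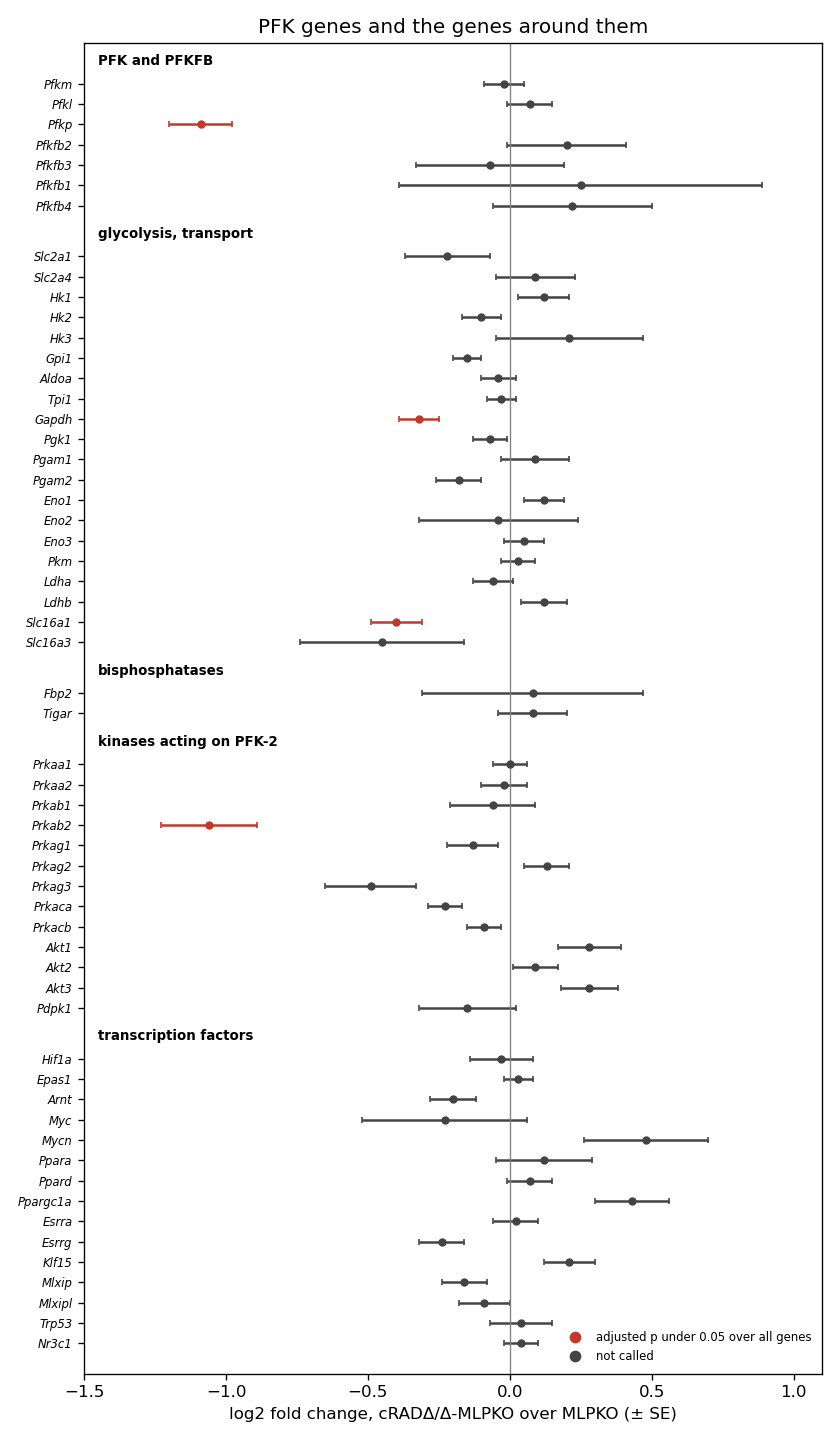
Log2 fold change of cRADΔ/Δ-MLPKO over MLPKO with its SE, for the 7 members and the tested genes of the 4 lists that are reported here. Red marks genes called over all genes. *Pfkp* (-1.09) and *Prkab2* (-1.06) lie far left of the rest, *Gapdh* (-0.32) and *Slc16a1* (-0.40) are the other genes in red, and most of the others lie near 0.

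The genes whose pattern was most like that of *Pfkp* were found by the root mean square difference of log2 CPM, each gene centred on its mean, over the 10 mice. They were *Prkab2* (0.200), *Lnx1* (0.206), *Pam* (0.221), *Cda* (0.228) and *Des* (0.236), against a median of 0.608 over the 13450 other genes, 0.588 for *Pfkm* and 0.605 for *Pfkl*. *Lnx1* is a ubiquitin ligase, *Pam* amidates peptide hormones and is abundant in heart, *Cda* is cytidine deaminase, and *Des* is desmin, the intermediate filament of muscle. All were lower in cRADΔ/Δ-MLPKO than in MLPKO without overlap, *Pam* at 1371 ± 236 CPM and 799.7 ± 75.5 CPM and *Des* at 3533 ± 924 CPM and 2057 ± 188 CPM. *Cda* had 15 to 66 counts per library and was not called (adjusted p = 0.0609, edgeR). Since the measure follows the genotype difference of *Pfkp*, likeness to it includes that difference.

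**Figure D4:**
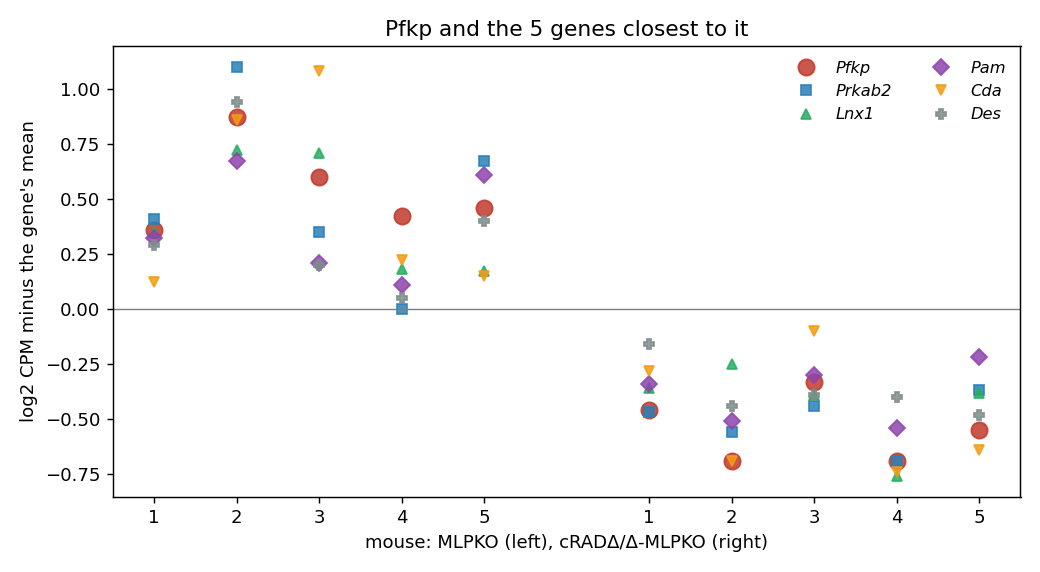
Log2 CPM minus each gene's mean over the 10 mice, for *Pfkp* (large circles) and the 5 genes closest to it, in the 5 MLPKO mice (left) and the 5 cRADΔ/Δ-MLPKO mice (right). All points on the right lie below 0, and MLPKO mouse 2 holds the highest *Pfkp* point.

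In bulk tissue, fewer cells of a type and less RNA per cell cannot be told apart. The 6 cardiomyocyte markers summed to 59699 to 70440 CPM in MLPKO and 46516 to 57102 CPM in cRADΔ/Δ-MLPKO, without overlap, and 1 of the 6 (*Tnnt2*) was called lower. The 6 endothelial markers summed to 640.3 to 772 CPM and 769 to 884 CPM, with 1 called higher (*Tek*). Of the 6 platelet markers 4 were tested and 0 called by edgeR, and the list summed to 8.61 to 12.4 CPM and 10.5 to 19.8 CPM. Macrophage markers summed to 97.0 to 139 CPM and 119 to 221 CPM, with 0 of 6 called by edgeR. The 6 fibroblast markers summed to 892 to 1297 CPM and 802 to 1368 CPM, with 1 called higher (*Dpt*), and the 6 smooth muscle and pericyte markers to 492 to 675 CPM and 651 to 870.2 CPM, with 2 called higher (*Acta2* and *Rgs5*). Median log2 fold changes were -0.29 for cardiomyocyte, 0.25 for endothelial, 0.61 for platelet and 0.52 for macrophage markers, beside 0.01 over all genes. They were 0.03 for fibroblast markers and 0.01 for smooth muscle and pericyte markers. MLPKO mouse 2, highest for *Pfkp*, was also the highest of the 10 for erythroid genes (2798 CPM, with 288 to 1978 CPM in the others) and for *Csrp3*. The part of these in the *Pfkp* difference was not tested.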

How the data were processed

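Hearts of 5 MLPKO and 5 cRADΔ/Δ-MLPKO mice were compared, 1 library per mouse. The deposited values are raw counts per gene, which the authors made with STAR on GRCm39 and featureCounts. Settings for strand, read pairs and shared reads are not given in the sources used here. Of 60676 rows, 3491 held no value. Genes were named by GENCODE M39. As in the authors' methods, a gene needed over 10 counts in 6 or more of the 10 mice, and names of the Gm or Rik kind were left out. The genotype contrast used edgeR 4.0.16 (quasi-likelihood, TMM) under R 4.3.3, with Benjamini-Hochberg adjustment over all genes tested. DESeq2 1.42.0, which the authors used, and limma-voom (limma 3.58.1) were alternatives. CPM were computed from the counts with TMM library sizes. Shares and levels between genes used CPM divided by merged exon length. Permutation tests were run in scipy 1.17.1. Scripts were tested on simulated counts. Sequences came from GRCm39.

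The members, lists and named genes were chosen with earlier results of these data known. Named were all members, the called genes of each list, the 5 genes most like *Pfkp*, *Rrad* and *Csrp3*. Any other gene was picked after seeing its values. The counts of the glycolysis list include 1 gene whose own values are not reported here. The smallest counts of a member in a library were 21 (*Pfkfb1*) and 62 (*Pfkfb4*). Of values from 1 to 20 counts, 73.7 to 80.3% were even, so counts may hold both mates of a pair.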

Additional observations from a re-analysis of the deposited data

Results flagged for a closer look

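Each group of 5 mice was checked for a mouse whose gap to its nearest neighbour was over 0.71 of the group's range, and 5 of 46 checks found such a mouse, where chance alone gives about 1 in 20. *Pfkfb4* stood at 5.82 CPM in cRADΔ/Δ-MLPKO mouse 3, with 2.00 to 2.78 CPM in the other 4, and this was the library with adipocyte markers. *Slc16a1* stood at 330.4 CPM in MLPKO mouse 5, with 261 to 281 CPM in the others. *Des* stood at 2382 CPM in cRADΔ/Δ-MLPKO mouse 1, with 1904 to 2031 CPM in the others. The same library stood apart in the sum of 3 atrial markers, at 24.5 CPM, with at most 6.24 CPM in any other mouse. In MLPKO mouse 2, *Pfkm* had its lowest share of the 3 PFK-1 genes (82.8%, with 86.1 to 87.2% in the others) and *Pfkp* its highest (8.47%, with 5.42 to 6.14% in the others). Both shares come from the same 3 values, so they are 1 observation rather than 2.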

How the results depend on the processing

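With 5 mice per genotype the number of genes called moved widely, from 50 to 826 when 1 mouse was left out against 369 with all 10. It was 142, 105, 100.0 and 50 without cRADΔ/Δ-MLPKO mouse 2, 3, 4 and 5, and 107, 826 and 57 without MLPKO mouse 1, 4 and 5. DESeq2 called 1298. List genes called lower were 3, with 7 under DESeq2 and 1 to 3 leaving out a mouse, and those called higher were 0, with 1 and 0 to 2. Mouse numbers name different animals. The deviations of same-numbered mice correlated at 0.02, 0.07, 0.10, 0.15 and -0.04. Each mouse was set against the 5 mice of the other genotype. By chance about 1 mouse in 5 would correlate best with its own number, and 4 of 10 mice did. Whether mice of the same number share a factor was not tested. A replicate block gave 281 calls and 2 list genes called lower, with *Gapdh* and *Slc16a1* not among them. With the block, the log2 fold change was 0.47 ± 0.37 (SE) for *Pfkfb1*, 0.26 ± 0.16 for *Pfkfb2*, 0.03 ± 0.18 for *Pfkfb3* and 0.15 ± 0.24 for *Pfkfb4*. Members other than *Pfkp* were not called under any alternative run, and the log2 fold change of *Pfkp* ran from -1.14 to -1.0. With counts not divided by length, mean shares in MLPKO and cRADΔ/Δ-MLPKO were 10.5 and 5.23% for *Pfkp*, 79.0 and 83.0% for *Pfkm*, 10.5 and 11.7% for *Pfkl*, and 69.9 and 71.5% for *Pfkfb2*. With canonical transcript length, chosen after seeing the data, they were 9.85 and 4.89%, 79.8 and 83.6%, 10.4 and 11.5%, and 73.7 and 74.0%. That length put *Pfkfb3* over *Pfkfb1* at -0.06 and *Pfkfb1* over *Pfkfb4* at 0.97 (adjusted p = 0.0398, exact permutation). With merged exon length, *Pfkfb1* over *Pfkfb4* was 0.20, and it ran from -0.02 (without cRADΔ/Δ-MLPKO mouse 4) to 0.38 when 1 mouse was left out. The cause of the other changes was not tested.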

Other observations

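Genes of the circadian clock, picked after their values were seen, varied among mice of the same genotype, as *Pfkfb1* and *Pfkfb3* did. *Dbp*, an output gene of the clock, was at 41.1, 24.6, 60.5, 87.9 and 29.6 CPM in MLPKO and at 30.2, 39.4, 19.3, 59.5 and 61.3 CPM in cRADΔ/Δ-MLPKO. *Bmal1*, the core activator of the clock, was at 10.5, 17.3, 7.17, 4.13 and 12.02 CPM in MLPKO and at 16.5, 9.76, 15.0, 6.88 and 6.90 CPM in cRADΔ/Δ-MLPKO. MLPKO mouse 4, the highest of the 10 for *Pfkfb1* and *Pfkfb3*, was the highest for *Dbp* and the lowest for *Bmal1*. MLPKO mouse 2, the lowest for both PFKFB genes, was the highest for *Bmal1*. It was not the lowest for *Dbp*, which was cRADΔ/Δ-MLPKO mouse 3. The clock genes *Ciart* and *Per2* were read too, and MLPKO mouse 4 was the highest for both (6.67 and 10.3 CPM). MLPKO mouse 2 was the lowest for *Ciart* (1.58 CPM) but not for *Per2* (4.94 CPM, with 2.63 CPM in cRADΔ/Δ-MLPKO mouse 1). No test is given, since these genes were picked for this pattern and the 5 mice of a genotype are too few for a relation within it.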
